A study of Mus musculus with 24 samples.

Results

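Immediate early genes are transcribed within minutes of a signal, and 10 of them were followed here through 24 RNA sequencing libraries of sorted HSCs, the hematopoietic stem cells of the mouse, which give rise to every blood lineage. The 10 were taken by symbol (Fos, Fosb, Jun, Junb, Jund, Egr1, Ier2, Dusp1, Zfp36 and Atf3) out of 55487 gene IDs in the files, and all were found. The libraries form 3 experiments, of which 2 alter PUS10, a pseudouridine synthase that isomerises uridine in RNA, and 1 a microRNA. Cells overexpressing PUS10 (PUS10-OE, n = 3) were set against vector controls (Vector, n = 3), and cells in which the microRNA miR-139 was knocked down (miR139-KD, n = 6) against a control labelled NTC (n = 6). Libraries labelled Pus10-KO (n = 3) were set against libraries labelled Pus10-WT (n = 3). All groups carry the same cell type label and passed through Smart-seq2, which copies polyadenylated RNA into full-length cDNA, amplifies it and cuts it with Tn5 transposase. Age, sex, strain and the vectors used are not given in the labels, nor do they say whether the libraries within a group stem from different animals or cultures. The p-values are therefore measured against library-to-library spread, part of which may be technical.

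Growth factors, cytokines and stress reach these genes through MAP kinases, which phosphorylate partners of serum response factor (SRF) and the factor CREB already sitting at their promoters, so no new protein is needed for the first wave of transcription. Fos, Fosb, Jun, Junb, Jund and Atf3 encode basic leucine zipper proteins that pair to form AP-1 and related dimers, Egr1 encodes a zinc finger transcription factor, and Ier2 encodes a nuclear protein of the same early wave. The wave is also shut down from within: Dusp1 encodes a phosphatase that inactivates MAP kinases, and Zfp36 encodes tristetraprolin, which binds AU-rich elements in short-lived mRNAs, those of immediate early genes among them, and directs their decay. In mice, loss of Egr1 is known to release HSCs into division and into the blood, and loss of Junb to expand HSCs and the myeloid cells derived from them.

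Reads counted in genes numbered 40940541 to 42573414 per library in PUS10-OE and 34205410 to 47278996 in Vector, so that experiment was sequenced about as deeply in both groups and more deeply than the other experiments. They numbered 9873587 to 14418088 in miR139-KD, 11784533 to 14741130 in NTC, 11866806 to 18236236 in Pus10-KO and 14465230 to 16485775 in Pus10-WT. Levels below are in CPM, read counts relative to library size, with TMM scaling over all 24 libraries. Of 12 HSC markers, 12 were detected in every group, and 10 of them in every library. Fgd5 and Hoxb5 were each detected in 23 of 24 libraries. Pus10 itself averaged 282 ± 29.2 CPM in PUS10-OE and 82.3 ± 22.6 in Vector (SD, n = 3 each, log2 fold change 1.76, SE 0.197, edgeR adjusted p = 0.278). It averaged 32.7 ± 7.81 CPM in miR139-KD and 35.8 ± 6.11 in NTC (n = 6 each, log2 fold change -0.12, edgeR adjusted p = 0.847). It was not lower in the libraries labelled Pus10-KO, with 32.5 ± 1.10 CPM against 25.8 ± 6.97 in Pus10-WT (n = 3 each, log2 fold change 0.31), so the direction of that experiment rests on its labels alone. The labels do not say which part of the gene was targeted.

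The 10 genes are compact. In the GENCODE M21 annotation (GRCm38) the principal transcripts spanned a median of 3286 bases and had a median of 2 exons, against 21847 bases and 9 exons over 11873 protein-coding genes with a mean of at least 1 CPM. All 10 were shorter than that median span and all 10 had a GC content above the median of those genes, with a median of 55.8% against 50.2%. Jun, Junb, Jund and Ier2 have 1 exon. Jund, at 67.2% GC, stood at the 99.9th percentile. Fos lies on chromosome 12 (85473890 to 85477273, plus strand), Fosb on chromosome 7 (19302696 to 19310051, minus), Zfp36 on chromosome 7 (28376784 to 28380253, minus) and Dusp1 on chromosome 17 (26505590 to 26562128, minus). Junb (84974484 to 84978718, minus), Jund (70698949 to 70700616, plus) and Ier2 (84661331 to 84662852, minus) lie on chromosome 8, Jun on chromosome 4 (95049034 to 95052222, minus) and Atf3 on chromosome 1 (191170296 to 191218039, minus). The libraries do not mark the strand, and some members overlap genes on the other strand. Jund shares 877 exon bases, 52.6% of its exon length, with the antisense gene Gm11175, which had a count of 0 in all 24 libraries. Junb shares 7.52% with Prdx2, Jun 7.28% with Junos and Zfp36 3.6% with Gm44710. Counts of these members are uncertain to the extent that the counting gave shared reads to neither gene.

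The promoters of 3 members are shown because their levels did not overlap between the groups of at least 1 of the experiments on PUS10 itself. They are RefSeq windows (GRCm38.p6) of 250 bases before to 50 bases after the annotated start, printed on the strand of the gene, and 8 of the 10 members matched the table. Egr1 and Ier2 had no match, so Egr1 is not shown although its PUS10-OE and Vector libraries did not overlap. Capitals mark matches to 4 motifs searched on both strands: the CArG box bound by SRF, the cyclic AMP response element TGACGTCA bound by CREB and related factors, with its overlapping shorter form TGACG, and the EGR family motif GCGNGGGCG. The windows lie at chr7:28379179-28379478 for Zfp36, chr17:26508423-26508722 for Dusp1 and chr7:19309996-19310295 for Fosb, all on the minus strand. The windows follow the RefSeq starts, so the motif counts hold for those starts. For Fosb, Zfp36, Dusp1 and Atf3 they lie inside the gene span of GENCODE, and for Junb and Jund before it.
Zfp36: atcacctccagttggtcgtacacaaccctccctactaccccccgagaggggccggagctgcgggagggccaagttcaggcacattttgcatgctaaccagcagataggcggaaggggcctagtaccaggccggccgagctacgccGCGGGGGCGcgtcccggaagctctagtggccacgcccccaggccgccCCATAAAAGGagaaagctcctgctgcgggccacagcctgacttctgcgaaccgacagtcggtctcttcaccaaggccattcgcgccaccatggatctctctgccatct
Dusp1: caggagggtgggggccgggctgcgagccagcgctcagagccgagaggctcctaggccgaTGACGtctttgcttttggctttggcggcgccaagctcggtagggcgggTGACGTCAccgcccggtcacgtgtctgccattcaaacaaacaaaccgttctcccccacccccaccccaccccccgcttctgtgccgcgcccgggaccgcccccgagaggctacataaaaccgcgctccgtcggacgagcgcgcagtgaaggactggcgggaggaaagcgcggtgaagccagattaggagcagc
Fosb: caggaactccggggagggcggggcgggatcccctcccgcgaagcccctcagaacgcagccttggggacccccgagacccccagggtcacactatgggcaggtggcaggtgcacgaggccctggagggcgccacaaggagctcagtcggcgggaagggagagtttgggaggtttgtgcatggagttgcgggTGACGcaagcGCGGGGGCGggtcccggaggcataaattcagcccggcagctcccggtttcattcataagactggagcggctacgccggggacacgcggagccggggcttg

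Zfp36 held a CArG box whose first base lies 58 bases before the start, and 1 of 8 members held that box, as did 1.63% of all 32851 windows. It also held the EGR motif 105 bases before the start, as did Fosb at 50 bases, so 2 of 8 members had it against 5.55% of all windows. Dusp1 held the full cyclic AMP response element 143 bases before the start and the shorter form 191 bases before it. The full element was in 1 of 8 members and in 1.79% of all windows, and the shorter form in 5 of 8 members (Fos, Fosb, Junb, Dusp1 and Atf3) and in 20.8% of all windows. The AP-1 motif TGANTCA was in 0 of 8 members and 7.81% of windows, and the TATA box TATAAA in Fos and Junb and in 13.6% of windows. The TATAAA match began 33 bases before the start in Fos and at the annotated start itself in Junb. All these motifs are matches of letters within the windows and not sites shown to be bound.

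Ier2 had the highest level per kilobase of exon among the members in all 6 groups. It stood at 101 ± 22.9 CPM per kilobase in PUS10-OE and 130 ± 24.9 in Vector, at 45.5 ± 10.8 in miR139-KD and 59.6 ± 12.6 in NTC, and at 86.0 ± 9.33 in Pus10-KO and 77.8 ± 14.2 in Pus10-WT. Below it the order differed by experiment. Egr1 came second in PUS10-OE (21.5 ± 5.22 CPM per kilobase) and Vector (41.2 ± 4.80), and Zfp36, Junb and Dusp1 held the next 3 places in both. In PUS10-OE these 3 lay within their spread of each other, at 12.0 ± 0.610 for Zfp36, 11.9 ± 3.62 for Junb and 9.56 ± 2.66 for Dusp1, and in Vector the order was Zfp36 (21.02 ± 1.37), Dusp1 (17.6 ± 1.21) and Junb (16.5 ± 3.38). In Pus10-KO and Pus10-WT, Junb came second (18.1 ± 8.15 and 27.2 ± 3.71 CPM per kilobase) and Dusp1 after it (13.7 ± 2.17 and 21.9 ± 3.45), and within either group these neighbours did not differ beyond their spread. In miR139-KD the second and the third place were held by Jund (13.9 ± 1.35 CPM per kilobase) and Junb (13.4 ± 4.78), also within their spread of each other, and in NTC by Junb (18.8 ± 4.08) and Jund (8.89 ± 2.90), which lay further apart than their SDs. Fosb and Atf3 averaged under 1 CPM per kilobase in every group, and Fosb was at 0 in PUS10-OE, miR139-KD and NTC.

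The levels of Egr1 and Jund differed more between the experiments than between the groups within them. Egr1 ranged over 78.7 to 209 CPM in the 6 libraries of the PUS10-OE experiment, 21.4 to 53.1 CPM in the Pus10-KO experiment and 0.139 to 21.9 CPM in the miR139-KD experiment. Jund was highest in the miR139-KD experiment, with 8.77 to 25.6 CPM, and reached at most 1.70 CPM in the PUS10-OE experiment and 4.43 CPM in the Pus10-KO experiment. Jun reached at most 1.43 CPM in the PUS10-OE experiment, although those libraries were the deepest. The experiments also differed in depth and in the share of ambiguous reads (6.5% to 6.9% in the PUS10-OE experiment, 12.3% to 20.1% in the miR139-KD experiment and 8.5% to 9.4% in the Pus10-KO experiment), so differences between experiments and such features cannot be told apart.

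**Figure D1:**
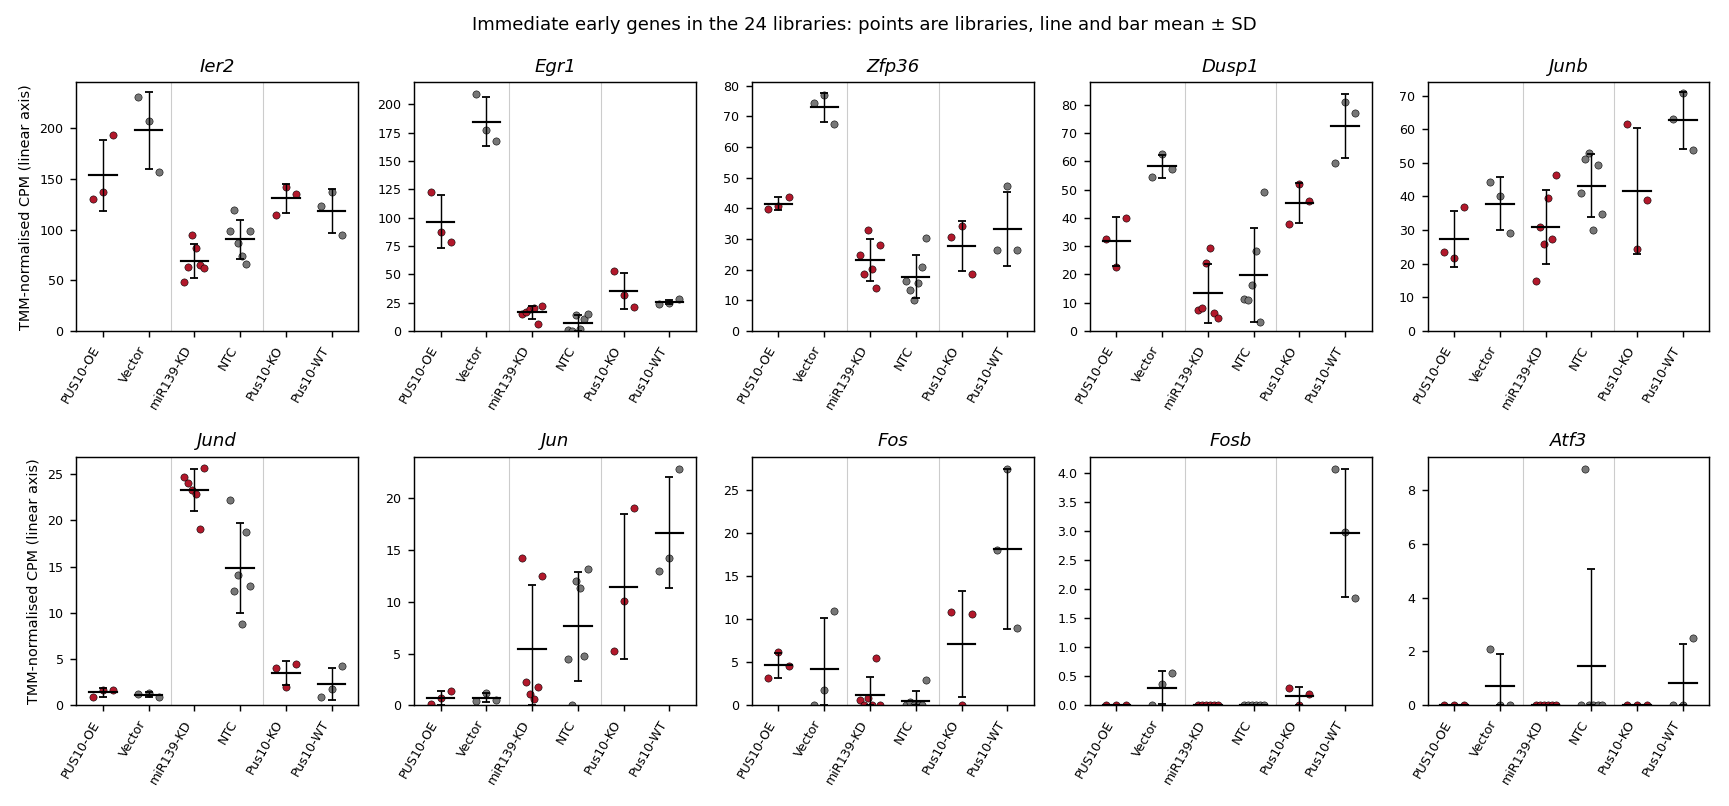
Level of each of the 10 immediate early genes in TMM-normalised CPM (linear axis, own scale per gene) by group, with libraries as points and the mean ± SD as line and bar. Zfp36, Dusp1 and Egr1 in the 3 PUS10-OE libraries lie below all 3 Vector libraries, Jund stands highest in the miR139-KD experiment, and Fosb is above 1 CPM in Pus10-WT libraries only.

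Egr1 and both feedback genes, Dusp1 and Zfp36, were lower in each of the 3 PUS10-OE libraries than in any of the 3 Vector libraries, by log2 fold changes of -0.96 to -0.83, while the AP-1 genes overlapped between the groups. DESeq2 called all 3 genes lower, whereas edgeR with adjustment over all genes called 0. Egr1 stood at 123, 87.3 and 78.7 CPM in the PUS10-OE libraries, against 209, 178 and 168 CPM in the Vector libraries. The lowest Vector library was above the highest PUS10-OE library. The log2 fold change was -0.96 (SE 0.176, edgeR unadjusted p = 0.000627, adjusted p = 0.338). Zfp36 stood at 39.8, 40.8 and 43.8 CPM in PUS10-OE, against 74.3, 76.8 and 67.6 CPM in Vector. Both groups were tight, with a coefficient of variation of 5.11% in PUS10-OE and 6.52% in Vector, and they did not overlap. The log2 fold change was -0.83 (SE 0.124, edgeR unadjusted p = 0.00015, adjusted p = 0.278). Dusp1 stood at 32.4, 22.5 and 40.1 CPM in PUS10-OE, against 54.6, 62.5 and 57.4 CPM in Vector. These groups did not overlap either, and the log2 fold change was -0.89 (SE 0.222, edgeR unadjusted p = 0.00404, adjusted p = 0.364). In bulk libraries such as these, fewer cells with a transcript and less RNA per cell cannot be told apart.

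The other members of this comparison showed no such separation. Ier2 stood at 130, 137 and 194 CPM in PUS10-OE, against 231, 207 and 157 CPM in Vector. Junb stood at 23.4, 21.8 and 37.0 CPM in PUS10-OE, against 44.4, 40.0 and 29.3 CPM in Vector. For both genes the highest PUS10-OE library lay above the lowest Vector library, and the log2 fold changes were -0.38 for Ier2 (SE 0.203, edgeR adjusted p = 0.721) and -0.48 for Junb (SE 0.265, edgeR adjusted p = 0.736). Jund averaged 1.42 ± 0.484 CPM in PUS10-OE and 1.18 ± 0.222 in Vector (0.25, SE 0.674). Jun averaged 0.751 ± 0.663 CPM in PUS10-OE and 0.727 ± 0.439 in Vector (n = 3 each, 0.05, SE 1.11). Both were low in every library of this experiment, and their ranges overlapped. Fosb and Atf3 were too low to be tested.

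Of 8 members tested in PUS10-OE against Vector, 0 passed the test across all 14834 genes (edgeR quasi-likelihood test, Benjamini-Hochberg adjusted p under 0.05), and 0% of all genes did. Pus10, the overexpressed gene, did not pass either (edgeR adjusted p = 0.278), so failing this test does not show that a member was unchanged. Without adjustment, 3 members had a p under 0.05, all lower in PUS10-OE, where 3.72% of all genes were lower at that p, and the same 3 were among the 6.17% of genes whose 3 PUS10-OE libraries all lay below the 3 Vector libraries. DESeq2, which shares the edgeR filter but models the spread otherwise, called 3 members lower (Zfp36 adjusted p = 6.76e-06, Egr1 adjusted p = 4.19e-05, Dusp1 adjusted p = 0.015), against 0.594% of all genes. With a filter of 10 CPM, edgeR called Egr1 alone (log2 fold change -0.98, adjusted p = 0.0316), against 0.142% of the 8424 genes then tested. The median log2 fold change of the 8 members was -0.43, and that of all genes was 0.006. The members were chosen with earlier results of these data known, so such counts and medians are a description in all 3 comparisons. Marker sums that did not overlap between the groups stood beside these results, that of the labelled cell type included. The 12 HSC markers, all detected in both groups, summed to 1580 to 1674 CPM in PUS10-OE and 1845 to 1869 CPM in Vector. Among them Cd34, which is also on the multipotent progenitor list, was at 588.1 to 611.5 CPM in PUS10-OE and 817.3 to 870.4 CPM in Vector. The 8 multipotent progenitor markers, all detected in both groups, summed to 966 to 1027 CPM in PUS10-OE and 1352 to 1393 CPM in Vector. The 9 megakaryocyte and platelet markers summed to 478 to 689 CPM in PUS10-OE, with 9 detected, and to 322 to 369 CPM in Vector, with 8 detected and Gp1bb at 0. The 10 erythroid markers, of which 7 were detected in both groups, summed to 2170 to 2550 CPM in PUS10-OE and 1763 to 2078 CPM in Vector. The 11 B and plasma cell markers, of which 5 were detected in both groups, summed to 61.2 to 99.0 CPM in PUS10-OE and 105 to 146 CPM in Vector, with Cd79a, Ms4a1, Pax5, Ebf1 and Igkc at 0 in both. The part of these markers in the results was not tested.

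In the miR139-KD experiment the clearest difference was in Jund, the AP-1 member that is present at a steady level in many unstimulated cells. Jund ranged over 19.1 to 25.6 CPM in miR139-KD (median 23.7), against 8.77 to 22.2 CPM in NTC (median 13.5, n = 6 each). Of the NTC libraries, 1 lay within the miR139-KD range and 5 below it. The log2 fold change was 0.66 (SE 0.255, edgeR unadjusted p = 0.021, adjusted p = 0.206). The 6 miR139-KD libraries agreed closely, with a coefficient of variation of 9.69%, which is the 4.05th percentile of the 9130 genes with at least 10 CPM on average in that group. The overlap of Jund with Gm11175 and the ambiguous share of reads, 12.3% to 20.1% in miR139-KD and 13.0% to 16.5% in NTC, stand beside this value, and their part in it was not tested.

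Egr1 ranged over 6.25 to 21.9 CPM in miR139-KD (median 18.4), against 0.139 to 14.9 CPM in NTC (median 5.98). Of the NTC libraries, 3 were at 0.139, 0.834 and 1.66 CPM and the other 3 between 10.3 and 14.9 CPM, so the control group itself was spread widely. The log2 fold change was 1.25 (SE 0.783, adjusted p = 0.481 by edgeR). In both groups the libraries of this experiment were far below those of the PUS10-OE experiment for this gene. Zfp36 ranged over 13.9 to 33.0 CPM in miR139-KD and 10.1 to 30.3 CPM in NTC, with a log2 fold change of 0.39 (SE 0.303). Dusp1 ranged over 4.62 to 29.3 CPM in miR139-KD and 3.28 to 49.2 CPM in NTC, with the highest coefficient of variation in each group among members averaging at least 10 CPM there. That coefficient of variation was 79.3% in miR139-KD and 83.4% in NTC, where the median gene with at least 10 CPM had 28.6% and 25.9%, and its log2 fold change was -0.57 (SE 0.603). Ier2 ranged over 48.6 to 94.9 CPM in miR139-KD (median 64.1), against 65.8 to 119 CPM in NTC (median 92.9). Its log2 fold change was -0.38 (SE 0.181, adjusted p = 0.32 by edgeR). Junb ranged over 14.9 to 46.3 CPM in miR139-KD and 30.0 to 52.9 CPM in NTC (-0.48, SE 0.253, adjusted p = 0.385 by edgeR). Jun ranged over 0.580 to 14.2 CPM in miR139-KD (median 1.99) and 0 to 13.1 CPM in NTC (median 8.07), and its log2 fold change was -0.48 (SE 0.997). All these ranges overlapped.

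Of 7 members tested in miR139-KD against NTC, 0 passed, against 2.72% of 13295 genes, and DESeq2 called 0 against 6.37%. Without adjustment, Jund alone had a p under 0.05 and was higher, against 8.04% of all genes higher at that p. The median log2 fold change of the 7 members was -0.38, and that of all genes was 0.017. Marker lists of other cells moved with the groups here. Megakaryocyte and platelet markers summed to 1251 to 2887 CPM in miR139-KD and 116 to 370 CPM in NTC with 9 of 9 detected in both, and multipotent progenitor markers to 330 to 416 CPM in miR139-KD and 849 to 1609 CPM in NTC with 8 of 8 detected in both. Of 8 T cell markers, 2 were detected in miR139-KD, with sums of 0.779 to 13.6 CPM, and 4 in NTC, with sums of 42.0 to 67.3 CPM, and Cd3e, Cd3g, Cd8a and Trac were at 0 in both. Sums of 14 neutrophil and monocyte markers overlapped widely, with 1780 to 19704 CPM in miR139-KD and 1966 to 21202 CPM in NTC. The part of these markers in the members' results was not tested.

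In the Pus10-KO experiment the groups did not overlap for Fosb and Dusp1, both lower in the libraries labelled Pus10-KO. Fosb, an AP-1 member otherwise close to absent in this series, had counts of 4, 0 and 4 in Pus10-KO, against 72, 52 and 29 in Pus10-WT. That is 0.168 ± 0.154 CPM in Pus10-KO and 2.98 ± 1.11 CPM in Pus10-WT (n = 3 each). The lowest Pus10-WT count was above the highest Pus10-KO count, and the fitted log2 fold change was -4.12 with a wide error (SE 1.49, edgeR adjusted p = 0.637). Fosb passed the filter on low counts through its Pus10-WT libraries alone, so these values are a description and its test supports nothing. Dusp1 stood at 37.8, 52.1 and 45.8 CPM in Pus10-KO, against 59.4, 80.9 and 76.9 CPM in Pus10-WT. These groups did not overlap, and the log2 fold change was -0.70 (SE 0.209, edgeR unadjusted p = 0.0109, adjusted p = 0.537).

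Fos had counts of 143, 1 and 212 in Pus10-KO, against 318, 478 and 140 in Pus10-WT, a log2 fold change of -1.36 (SE 1.18). The second Pus10-KO library was almost without Fos, while the other 2 lay inside the Pus10-WT range. Jun stood at 5.24, 10.1 and 19.0 CPM in Pus10-KO, against 13.0, 14.2 and 22.8 CPM in Pus10-WT (-0.56, SE 0.525). Junb stood at 61.5, 24.2 and 38.9 CPM in Pus10-KO, against 63.1, 70.8 and 53.8 CPM in Pus10-WT (-0.61, SE 0.335). Jund stood at 4.10, 2.00 and 4.43 CPM in Pus10-KO, against 0.906, 1.78 and 4.23 CPM in Pus10-WT (0.58, SE 0.968). In each of these AP-1 genes at least 1 Pus10-KO library lay within the Pus10-WT range. Zfp36 stood at 30.7, 34.1 and 18.5 CPM in Pus10-KO, against 26.3, 47.1 and 26.5 CPM in Pus10-WT (-0.28, SE 0.351). Egr1 stood at 53.1, 31.9 and 21.4 CPM in Pus10-KO, against 24.2, 24.9 and 28.0 CPM in Pus10-WT (0.44, SE 0.351). Ier2 stood at 115, 142 and 135 CPM in Pus10-KO, against 124, 137 and 94.6 CPM in Pus10-WT (0.12, SE 0.172). For these 3 genes the groups overlapped.

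Of 9 members tested in Pus10-KO against Pus10-WT, 0 passed, against 0.0614% of 14657 genes, and DESeq2 called 0 against 0.999%. Apart from Fosb, 1 member, Dusp1, was lower at an unadjusted p under 0.05, against 3.33% of all genes, and it was among the 6.09% of genes with all Pus10-KO libraries below all Pus10-WT libraries. The groups also differed in B and plasma cell transcripts. The 11 markers summed to 96.4 to 112 CPM in Pus10-KO, with 6 detected, and to 17846 to 25175 CPM in Pus10-WT, with 10 detected. In Pus10-KO the defining markers Cd79a, Ms4a1, Pax5, Ebf1 and Mzb1 were at 0, and Igkc was at 0.498 to 13.5 CPM, against 9181 to 12714 CPM in Pus10-WT. In Pus10-WT Pax5 was at 0. The part of these transcripts in the lower Fosb and Dusp1 levels was not tested.

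**Figure D2:**
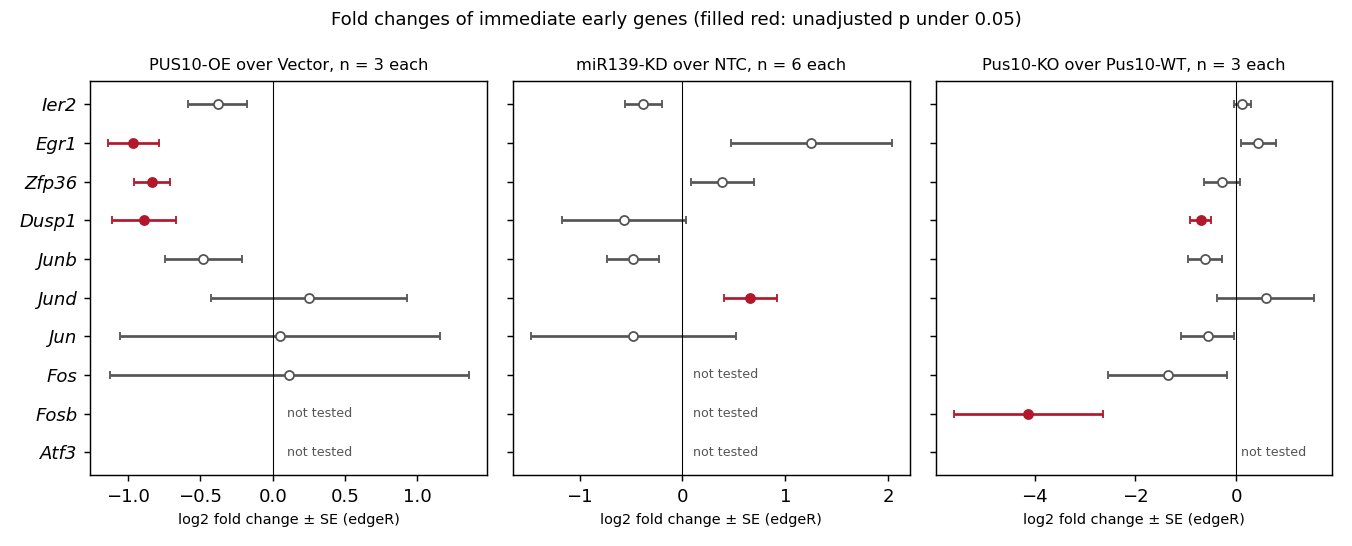
Log2 fold change ± SE from edgeR (x axis) of each member (y axis) in PUS10-OE over Vector, miR139-KD over NTC and Pus10-KO over Pus10-WT, with filled red points for an unadjusted p under 0.05. Egr1, Zfp36 and Dusp1 lie below 0 in the first panel, Jund above 0 in the second, and Dusp1 and Fosb below 0 in the third, where Fosb entered through its Pus10-WT counts alone.

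The members with counts at or near 0 were patchy from library to library. Fosb was detected in 7 of 24 libraries. It had a count of 0 in all 3 PUS10-OE libraries, where 3 counts correspond to 0.0781 to 0.0824 CPM, and counts of 0, 16 and 18 in Vector. In the miR139-KD experiment it was at 0 in all 12 libraries, and 3 counts there correspond to 0.207 to 0.292 CPM. Atf3, a stress-induced AP-1 family gene, was detected in 3 of 24 libraries. These were the first Vector library with 75 counts, the second NTC library with 126 and the third Pus10-WT library with 39, and Atf3 was at 0 in all 12 libraries of PUS10-OE, miR139-KD and Pus10-KO. Fos, the partner of the JUN proteins in classical AP-1, was detected in 17 libraries. Its counts were 120, 225 and 175 in PUS10-OE, against 1, 79 and 351 in Vector (log2 fold change 0.11, SE 1.24). The Vector libraries lay on both sides of the PUS10-OE libraries. Fos was at 0 in 3 of 6 miR139-KD libraries and in 4 of 6 NTC libraries, with highest counts of 79 and 40. Such floors cover counting error only, since reads without molecular identifiers are not independent molecules.

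**Figure D3:**
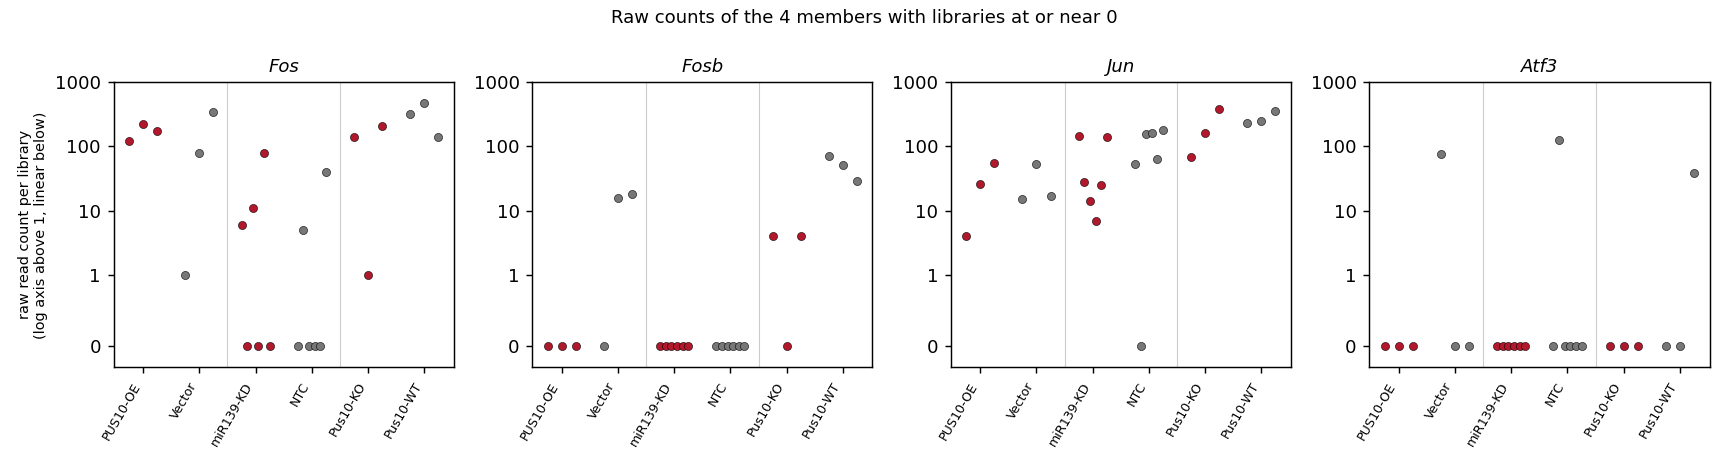
Raw read counts (log axis above 1, linear below) of Fos, Fosb, Jun and Atf3 in each library by group. Fosb has 29 to 72 counts in Pus10-WT and 0 to 4 in Pus10-KO. Atf3 has counts in 3 of the 12 control libraries and in 0 of the 12 libraries of PUS10-OE, miR139-KD and Pus10-KO.

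Because the 3 experiments share no libraries, the differences between their effects could be tested in a fit over all 24. The Egr1 log2 fold change of PUS10-OE over Vector was lower than that of miR139-KD over NTC by a difference of -2.18 (SE 0.973, edgeR unadjusted p = 0.0349, adjusted p = 0.527). For Zfp36 the same difference was -1.19 (SE 0.434, edgeR unadjusted p = 0.0114, adjusted p = 0.417). For Dusp1, whose log2 fold change was below 0 in all 3 comparisons, it was -0.30 (SE 0.812). Against Pus10-KO over Pus10-WT, the differences were -1.40 for Egr1 (SE 1.10), -0.55 for Zfp36 (SE 0.498) and -0.20 for Dusp1 (SE 0.932). This fit takes 1 spread per gene from all 24 libraries, so the spread of the miR139-KD experiment enters these SEs too. In the separate fit of PUS10-OE over Vector the SE of the log2 fold change was 0.176 for Egr1 and 0.222 for Dusp1. A difference that does not pass here therefore does not show that the effects were alike. Across the 3 differences 0 members passed, against 0.051% of 17664 genes for PUS10-OE minus miR139-KD, 0.0226% for PUS10-OE minus Pus10-KO and 0.294% for miR139-KD minus Pus10-KO. Of the 10 members tested in each difference, near-absent Fosb and Atf3 included, 2 had an unadjusted p under 0.05 in the first and 0 in the others. The share of all genes at that p was not computed for the differences, so this count cannot be read against it.

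Genes of a shared response can be followed by how they vary between libraries of the same group. For the 7 members detected in enough libraries, log2(CPM + 1) values were centred on their group means and correlated over the 24 libraries. The 21 pairs had r between -0.46 (Jun and Ier2) and 0.48 (Ier2 and Dusp1), with a median of 0.14 and 13 pairs above 0. For Ier2 and Dusp1, Pearson's r was 0.48 (permutation p within groups = 0.0533, adjusted over the 21 pairs 0.638) and Spearman's rho was 0.44 (permutation p = 0.06, adjusted 0.58). Without the 2 libraries farthest from the median r was 0.39, and within the PUS10-OE, miR139-KD and Pus10-KO experiments it was 0.48, 0.54 and 0.28. For Jun and Ier2, Pearson's r was -0.46 (permutation p = 0.0608, adjusted 0.638) and Spearman's rho was -0.37 (permutation p = 0.11, adjusted 0.58), and without the 2 farthest libraries r was -0.20. Of the 21 pairs, 0 passed the adjusted threshold by either measure, and 6 had the same sign in all 3 experiments.

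**Figure D4:**
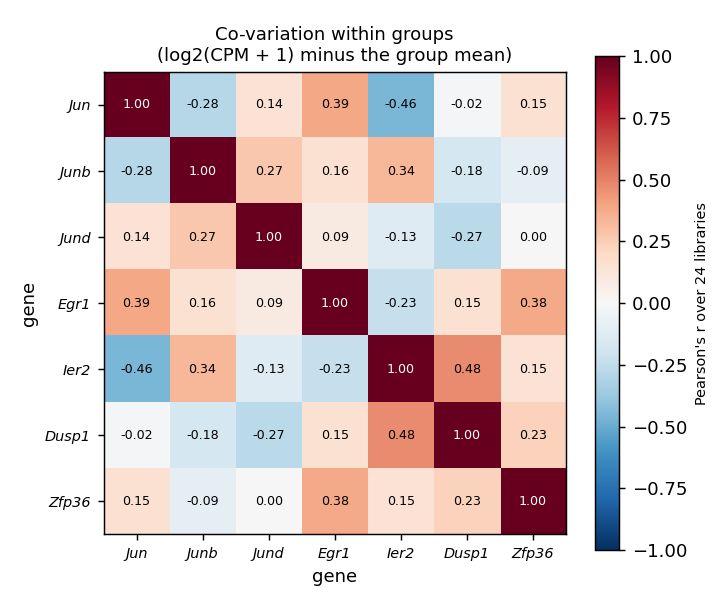
Pearson's r between 7 members over 24 libraries after centring log2(CPM + 1) on the group means (both axes list the genes, the colour scale runs from -1 to 1). Values off the diagonal lie between -0.46 and 0.48, and 0 pairs pass after adjustment.

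For a search of similar genes, the centred values of all 10 members were averaged, with Fos, Fosb and Atf3 included. Among 9542 other genes with a mean log2 CPM of at least 3, the genes most like this mean were Hsdl1 (r = 0.81), Rogdi (0.75), Tmem115 (0.75), Klf6 (0.72), Oas1b (0.70), Copg2 (0.68), Gltp (0.68), Cry1 (0.67), Mgat4b (0.67) and Mndal (0.67). These values are a description over 24 libraries that share their group centring. The sixth NTC library lay farthest out, with a member mean 0.61 above its group on the log2 scale. Without it r was 0.77 for Hsdl1, 0.64 for Mgat4b, 0.60 for Rogdi and Copg2, 0.61 for Tmem115 and 0.53 for Gltp. It was 0.51 for Klf6, itself an immediate early gene, 0.49 for Oas1b and Cry1, and 0.37 for Mndal.

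The genes around the members were taken from 6 lists of the same circuit, also chosen with earlier results of these data known. The median log2 fold changes of these lists ran over -0.17 to 0.46 in PUS10-OE over Vector, 0.03 to 1.46 in miR139-KD over NTC and 0.01 to 0.51 in Pus10-KO over Pus10-WT, where each upper end is that of the 4 EGR and NR4A genes and corepressors tested. In miR139-KD against NTC, 4 of the 97 listed genes tested rose and 2 fell, where 1.41% and 1.31% of all genes were called higher and lower. Nab1, a corepressor that binds EGR proteins, was at 58.1 ± 16.6 CPM in miR139-KD and 31.2 ± 7.35 in NTC (SD, n = 6 each, log2 fold change 0.91, SE 0.217, adjusted p = 0.0388 by edgeR), 1 of 4 tested among the other EGR and NR4A genes and corepressors. Zfp36l2, a paralog of Zfp36 in the same family of mRNA decay factors, was at 183 ± 19.1 CPM in miR139-KD and 124 ± 20.9 in NTC (0.57, SE 0.123, adjusted p = 0.0264). Hnrnpd, another protein that binds AU-rich elements, was at 216 ± 54.5 CPM in miR139-KD and 143 ± 18.4 in NTC (0.60, SE 0.151, adjusted p = 0.0477), so that 2 of 19 genes on that list rose and 0 fell. Mapk3, which encodes the MAP kinase ERK1, was at 107 ± 20.9 CPM in miR139-KD and 58.8 ± 18.3 in NTC (0.87, SE 0.203, adjusted p = 0.0346), 1 of 25 upstream kinases and serum response factors. On the lower side, the phosphatase gene Dusp2 was at 46.7 ± 13.1 CPM in miR139-KD and 88.1 ± 17.1 in NTC, with no overlap of the groups, as in 1.81% of all genes (-0.90, SE 0.200, adjusted p = 0.0276), 1 of 12 other MAP kinase phosphatases and antagonists. Myc, a growth regulator that is itself induced early, was at 238 ± 38.5 CPM in miR139-KD and 370 ± 87.6 in NTC (-0.62, SE 0.154, adjusted p = 0.046), 1 of 21 other immediate early genes. The other AP-1 family list had 0 of 16 called. DESeq2 called 2 more genes higher, where it called 3.06% of all genes higher. These were the EGR corepressor gene Nab2, at 23.2 ± 9.98 CPM in miR139-KD and 8.92 ± 5.77 in NTC (1.39, SE 0.446, DESeq2 adjusted p = 0.0372), and the phosphatase gene Dusp3, at 37.0 ± 14.0 CPM in miR139-KD and 15.2 ± 7.27 in NTC (1.29, SE 0.352, DESeq2 adjusted p = 0.00998). Each of the 6 edgeR calls was lost when some 1 library was left out, Zfp36l2 in 4, Dusp2 in 5, Nab1 in 8 and Hnrnpd, Myc and Mapk3 in 9 of 12 cases, and leaving out the second NTC library ended all 6, with adjusted p-values of at most 0.104 over all cases. Without a filter on low counts the calls of Hnrnpd, Nab1 and Myc were lost (adjusted p = 0.0641, 0.0566 and 0.0532), and other settings ended calls of Hnrnpd, Myc, Zfp36l2 and Mapk3.

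In PUS10-OE against Vector, edgeR called 0 of the 101 listed genes tested. At an unadjusted p under 0.05, 6 were higher and 9 lower in PUS10-OE, where 4.47% and 3.72% of all genes were. DESeq2 called 3 of them, all lower in PUS10-OE, against 0.594% of all genes. Klf10, an early zinc finger repressor, averaged 61.8 ± 11.3 CPM in PUS10-OE and 114 ± 26.5 in Vector (log2 fold change -0.90, SE 0.207, edgeR adjusted p = 0.358). Ppp1r15a, which encodes the stress-induced phosphatase subunit GADD34, averaged 17.2 ± 4.12 CPM in PUS10-OE and 36.4 ± 11.0 in Vector (-1.09, SE 0.291, edgeR adjusted p = 0.393). Dusp6, an ERK phosphatase, averaged 97.5 ± 21.8 CPM in PUS10-OE and 171 ± 12.8 in Vector (-0.83, SE 0.177, edgeR adjusted p = 0.338). For all 3 genes the PUS10-OE libraries lay below the Vector libraries, as in 6.17% of all genes. Srf, the factor that binds CArG boxes, was at 9.53, 7.83 and 10.7 CPM in PUS10-OE, against 4.36, 4.85 and 3.17 CPM in Vector, and was called by neither tool, with groups that did not overlap, as in 9.15% of genes higher in PUS10-OE (1.16, SE 0.298, edgeR adjusted p = 0.371).

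In Pus10-KO against Pus10-WT, edgeR called 0 of the 99 listed genes tested. At an unadjusted p under 0.05, 7 were higher and 1 lower in Pus10-KO, where 3.53% and 3.33% of all genes were. DESeq2 called 2, both higher in Pus10-KO, against 0.527% of all genes. Rhob, an early-induced small GTPase, was at 17.2, 26.6 and 21.2 CPM in Pus10-KO, against 3.34, 6.61 and 5.32 CPM in Pus10-WT (2.07, SE 0.412, edgeR adjusted p = 0.358). Mapk14, which encodes the stress kinase p38 alpha, averaged 186 ± 18.2 CPM in Pus10-KO and 118 ± 5.88 in Pus10-WT (0.64, SE 0.126, edgeR adjusted p = 0.35). In neither gene did the groups overlap, as in the 7.42% of all genes with every Pus10-KO library above every Pus10-WT library. Dusp2, lower in miR139-KD than in NTC, was at 103 ± 20.7 CPM in Pus10-KO and 70.4 ± 6.17 in Pus10-WT (0.52, SE 0.184, edgeR adjusted p = 0.603), and the difference between these effects was not tested.

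**Figure D5:**
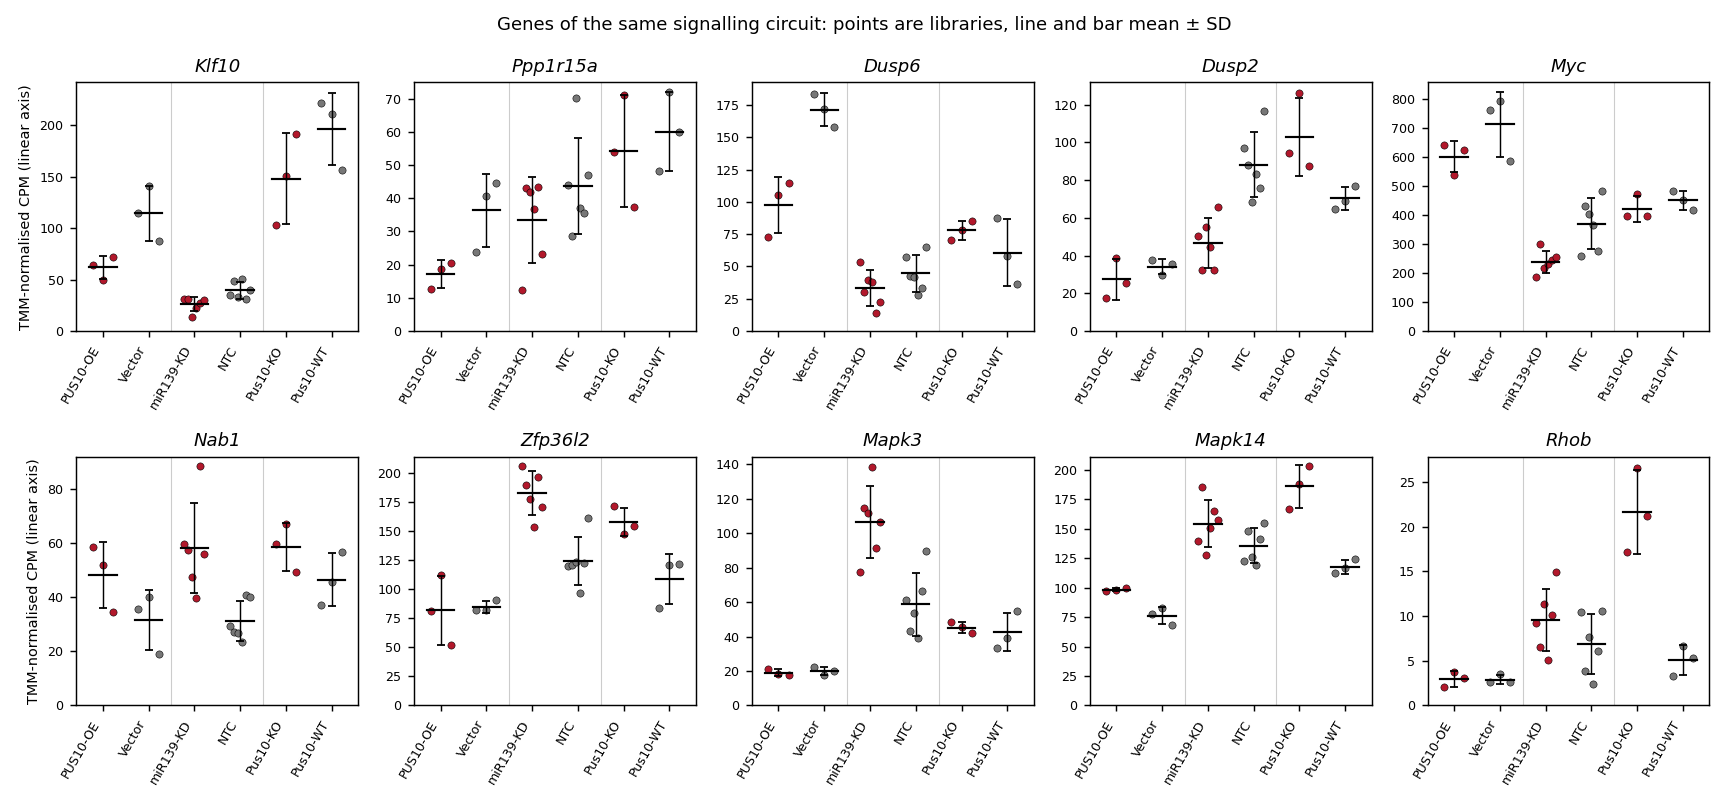
Levels in TMM-normalised CPM (linear axes, own scale per gene) of 10 genes of the surrounding circuit by group, with libraries as points and the mean ± SD as line and bar. For Klf10, Ppp1r15a and Dusp6 every PUS10-OE library is below every Vector library, for Dusp2 every miR139-KD library is below every NTC library, and for Rhob and Mapk14 every Pus10-KO library is above every Pus10-WT library. Of all genes, 6.17%, 1.81% and 7.42% were placed in these ways, in that order.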

How the data were processed

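For each library the authors deposited raw counts per gene (whole numbers, not normalized). Per the submitters' processing notes, HISAT2 2.1.0 and HTSeq 0.11.2 were used with the mm10 genome, and DESeq2 is listed too. The counting mode and annotation release are not given in the sources used here. Entries for reads in no gene (3.70% to 12.0%) or ambiguous between genes (6.53% to 20.1%) stayed out of library sizes. Symbols and coordinates came from GENCODE M21, matched without version. All 10 members matched, 9 of them with the same version.

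Only the 2 groups compared entered each fit in edgeR 4.0.16 (filterByExpr, TMM, robust quasi-likelihood F test, two-sided), with Benjamini-Hochberg adjustment over all genes tested and a threshold of 0.05. Differences between comparisons came from 1 fit of all 24 libraries. Fits were tested on simulated counts. Alternatives were DESeq2 1.42.0, limma-voom (limma 3.58.1), 3 other scalings, 2 other filters, the replicate block, all groups in 1 fit and leaving out each library. Correlations used 100000 permutations within groups. Figures were drawn with matplotlib 3.10.9.

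The members and gene lists were chosen with earlier results of these data known. The text names all members, Pus10, the 10 genes most like the member mean, and, of the up to 3 genes per list and comparison with the lowest p, those called by edgeR or DESeq2 and Srf. Dusp2 in Pus10-KO was also among those 3.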

Additional observations from a re-analysis of the deposited data

Results flagged for a closer look

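In 17 sets of 6 libraries (a member in miR139-KD or NTC), 3 values stood far from the rest of their group. The usual chance rate of about 1 in 20 sets does not hold here, because all 3 sets consist mostly of values at or near 0, where any library with more reads stands apart. Fos was at 5.49 CPM in the fifth miR139-KD library, where the next highest was 0.888 CPM. Fos was at 2.94 CPM in the sixth NTC library, where the next was 0.348 CPM. Atf3 was at 8.78 CPM in the second NTC library and at 0 in the other 5.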

How the results depend on the processing

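Counts of members passing the threshold were 0 in every alternative except for PUS10-OE over Vector, where DESeq2 gave 3 and a filter of 10 CPM gave 1. Leaving out each library in turn gave 0 to 0 in all 3 comparisons and all 3 differences. The Egr1, Zfp36 and Dusp1 log2 fold changes of PUS10-OE over Vector ranged over -1.17 to -0.86, -0.91 to -0.80 and -1.13 to -0.69 with 1 library left out. That of Dusp1 in Pus10-KO over Pus10-WT ranged over -0.83 to -0.58. For Fosb in that comparison the range was -4.79 to -3.55. It is a description only, since Fosb passed the filter on low counts through its Pus10-WT libraries alone. Some values turned sign, and the cause was not tested. Jun in PUS10-OE over Vector was 0.05, -0.84 with limma-voom, -0.45 with the replicate block and -0.87 to 0.65 with 1 library left out. Jun in miR139-KD over NTC was -0.48, and 0.048 with limma-voom. With 1 library left out, Fos in PUS10-OE over Vector ranged over -0.47 to 2.33, Ier2 and Zfp36 in Pus10-KO over Pus10-WT over -0.014 to 0.24 and -0.45 to 0.047, and the Dusp1 difference between PUS10-OE and miR139-KD over -0.81 to 0.10. The replicate numbers did not pair the libraries (correlations of same-numbered deviations -0.052 to 0.011). With the number as a block, 0 members were called in any comparison, and 188 genes in place of 361 in miR139-KD over NTC and 2 in place of 9 in Pus10-KO over Pus10-WT. Alternatives for the listed genes were chosen after seeing the data. Among these genes, the block ended the calls of Zfp36l2 (adjusted p = 0.0575), Hnrnpd (0.12) and Mapk3 (0.111). Scaling by library size alone ended those of Hnrnpd (0.0507) and Myc (0.05004), limma-voom that of Myc (0.051), and no filter those of Hnrnpd (0.0641), Nab1 (0.0566) and Myc (0.0532). Other scalings moved the median of all genes by at most 0.065 on the log2 scale. DESeq2 called 797 genes in miR139-KD over NTC, 177 in PUS10-OE over Vector and 146 in Pus10-KO over Pus10-WT.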
